A study of Homo sapiens with 12 samples.

Results

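The data describe 10 genes that mark the epithelial or the mesenchymal state of a cell, chosen as a fixed list of symbols: CDH1, EPCAM, ESRP1, GRHL2, ELF3 and EHF on the epithelial side, and CDH2, VIM, ZEB1 and ZEB2 on the mesenchymal side. Of these, 9 were matched among the 19251 genes listed by Ensembl identifier, 5 epithelial and 4 mesenchymal, and GRHL2 was not analysed here. The members and the lists of related genes used below were chosen with earlier results of these data known. Counts of calls set beside the share of all genes are therefore descriptions. RNA was sequenced from 2 established human ovarian cancer lines of wild-type genotype, CAOV3, labelled as epithelial of high grade serous type, and TOV21G, labelled as epithelial of clear cell type. Each line was either left untreated (control) or given ovarian cancer ascites, the fluid that builds up around the abdominal organs of patients, at 10% for 16 h (150 µL into 1.5 mL of medium). All 4 groups were grown in DMEM with 10% fetal bovine serum and antibiotics, and each group held 3 libraries. The labels name no fluid added to the control wells and do not say how many patients' ascites was used. Nothing in the labels says that the 3 libraries of a group came from separate cultures, so the p-values measure only the spread between these libraries, which may be technical.

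In an epithelium, cells are held to their neighbours by E-cadherin, which CDH1 encodes, and by tight junctions, and they carry keratin filaments. In the epithelial to mesenchymal transition, transcription factors such as ZEB1, ZEB2, SNAI1 and TWIST1 repress these genes, ZEB1 and ZEB2 by binding E-box sequences of the form CACCTG, and N-cadherin (CDH2) and vimentin (VIM) take the place of E-cadherin and keratins. Ovarian carcinomas are known to hold both kinds of marker in varying proportion, and ascites is the fluid through which their cells spread in the abdomen.

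Values are the authors' normalised read counts, that is reads divided by a scaling factor per library, given as mean ± SD with n = 3 libraries. The libraries held 26697609 to 34491304 reads. Differences are on the log2(value + 1) scale from 1 limma fit over the 12 libraries and 17616 tested genes, all 9 matched members among them, with Benjamini-Hochberg adjusted p-values. The threshold for a call was an adjusted p of 0.05. The 6 markers of the labelled tumour type summed to 135967 to 137312 in CAOV3 controls and 18754 to 19618 in TOV21G controls. KRT7, KRT8, KRT18 and EPCAM were higher in CAOV3, and PAX8 and MUC1 were lower. PAX8, a Müllerian lineage factor, stood at 19.1 ± 1.2 in CAOV3 controls and 7032 ± 259 in TOV21G controls. Fibroblast markers were read in both lines: LUM stood at 4196 ± 366 and PDGFRA at 1005 ± 62 in CAOV3 controls and at 0 and 1.07 in TOV21G controls, where COL1A2 stood at 10854 ± 308. VIM was among the 7 listed genes with the highest values in both, with no correction for length. The identity of the lines was not tested, so every comparison between them is of libraries as labelled. For markers of other cells that ascites could bring, no list's sum lay wholly above its controls with ascites in either line. In CAOV3, 2 of 10 leukocyte markers were matched, with sums of 117 to 134 in controls and 101 to 125 with ascites. The 5 matched mesothelial markers of 6 summed to 64.5 to 82.1 and 50.1 to 76.7, the 5 matched fibroblast markers of 7 to 5542 to 6404 and 5301 to 5454, and the 1 endothelial marker of 4 to 8.61 to 10.2 and 5.11 to 11.3. In TOV21G the leukocyte sum was 8.39 to 13.0 in controls and 11.6 to 20.4 with ascites, the mesothelial sum 805 to 893 and 818 to 863, the fibroblast sum 12543 to 13079 and 11260 to 11688, and the endothelial marker 0.897 to 1.08 and 0 to 3.58. None of 4 erythroid markers was analysed here. The fibroblast collagen COL1A2, near 0 throughout CAOV3, went from 2.46 to 0.365 there (limma adjusted p = 0.00461), a call that edgeR (0.232) and DESeq2 (0.314) did not make. Of the labelled-type markers, KRT8, KRT18 and MUC1 rose with ascites in CAOV3. MUC1, an epithelial surface mucin, went from 50.1 ± 4.7 to 122 ± 11 with ascites (log2 difference 1.27, SE 0.11, limma adjusted p = 6.06e-05). In TOV21G PAX8 went from 7032 ± 259 to 8852 ± 448 with ascites, with all ascites libraries above the controls. Limma did not call this difference (0.33, adjusted p = 0.161), while edgeR (0.00134) and DESeq2 (4.05e-07) did.

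The sequences upstream of 2 members are shown because they hold the E-box that ZEB1 and ZEB2 bind, and because ELF3 is the member that responded to ascites. Promoter windows of 250 bases before the start site, from RefSeq on GRCh38.p14, were found for 6 members (ELF3, EHF, CDH2, VIM, ZEB1 and ZEB2) with 14 start sites. No window was used for CDH1, EPCAM and ESRP1. Each stretch below is 30 bases on the plus strand with the E-box in capitals, at chr1:202010455-202010484 for ELF3 and chr10:31318348-31318377 for the first start site of ZEB1.
ELF3: gaatatgcaaatCACCTGgggccaggagcc
ZEB1: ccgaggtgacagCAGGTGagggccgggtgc
The ELF3 match begins 120 bases and the ZEB1 match 57 bases before the start site. In GENCODE release 29 the ELF3 stretch lies within the first exon of a longer ELF3 transcript, and the ZEB1 stretch lies outside ZEB1 and within exons of the antisense gene ZEB1-AS1. CACCTG, read on both strands as CACCTG or CAGGTG, was present in 3 of the 14 windows (1 of ELF3 and 2 of ZEB1), against 17.5% of 35116 promoter windows of the same length. The windows of EHF, CDH2, VIM and ZEB2 held no match. The palindrome AACCGGTT, the site of the grainyhead-like factors, was in none of the 14 and in 0.117% of all windows. The NF-kB motif, read on the strand of the gene only, was in 1 window, that of the second ZEB1 start site, and in 7.46% of all windows. The opposite strand was not counted for this motif, and the ELF3 window holds a match there. These matches describe the letters only.

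The untreated lines were compared first. Every epithelial member was lower in TOV21G than in CAOV3, and the mesenchymal members split, with CDH2, VIM and ZEB1 higher in TOV21G and ZEB2 nearly unread there. All 9 matched members were called, 6 lower and 3 higher in TOV21G, and for all 9 the control libraries of the lines did not overlap. The lines differed in most of the transcriptome: 82.2% of tested genes were called in this comparison, 41.4% lower and 40.8% higher in TOV21G, so a call by itself says little about these genes.

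**Figure D1:**
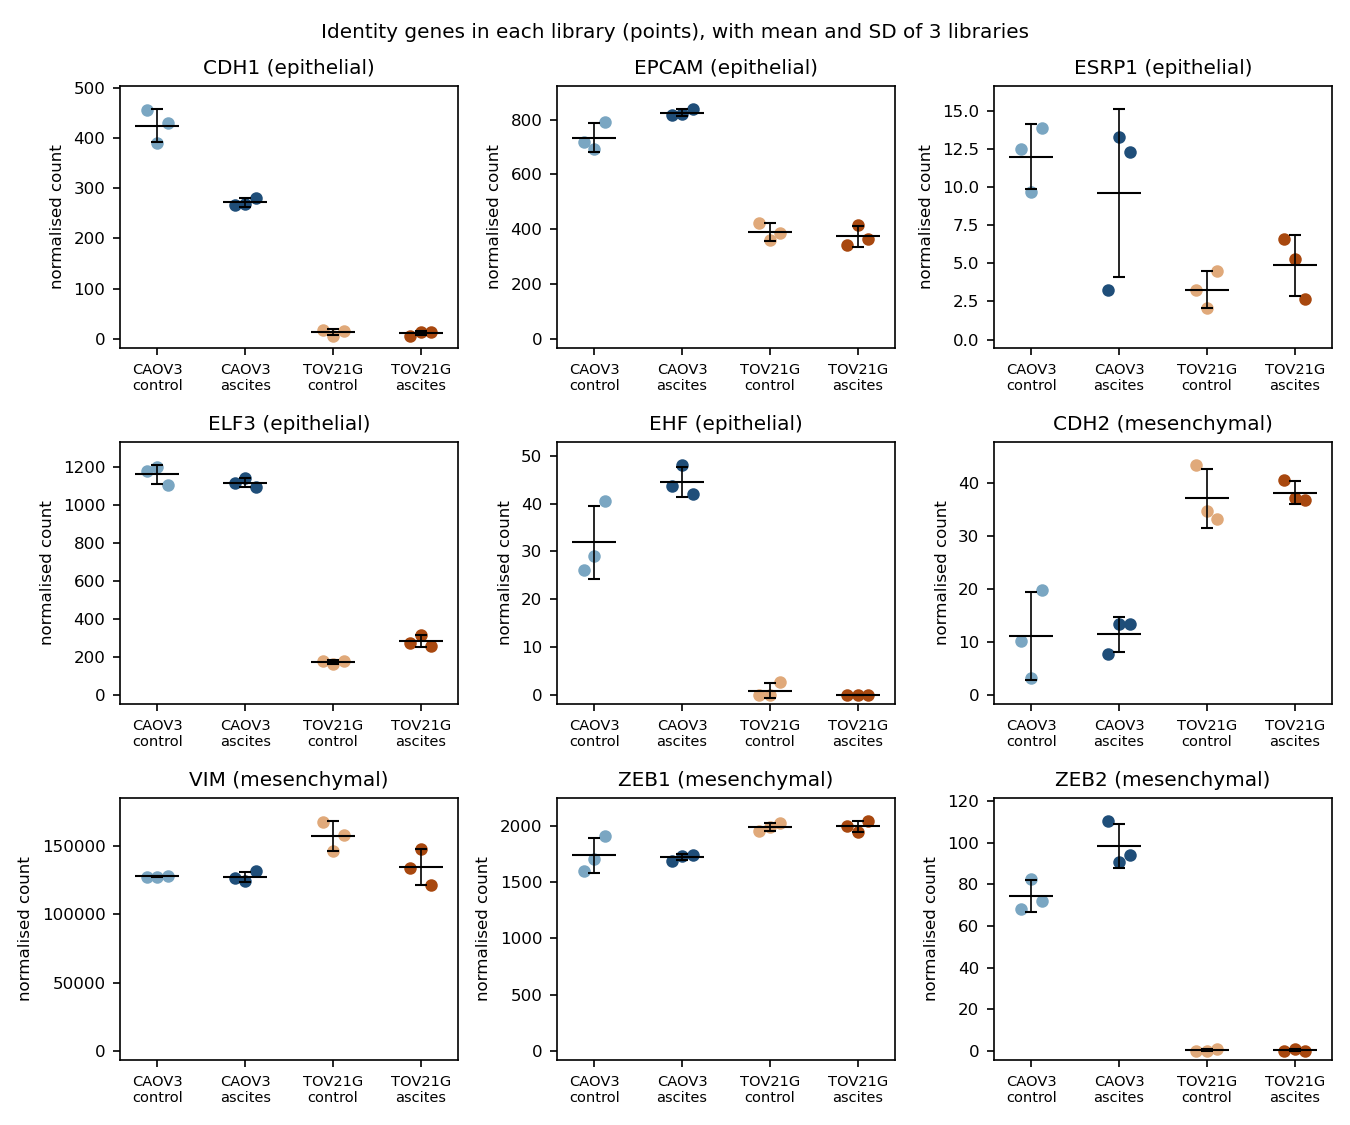
Normalised read count (y axis, linear) of the 9 matched members in each library (points) of the 4 groups (x axis), with the mean and SD of 3 libraries as bars. CDH1, EHF and ZEB2 are near 0 in all TOV21G libraries, CDH1 sits lower in the CAOV3 ascites libraries than in the controls, and ELF3 is higher in the TOV21G ascites libraries than in their controls.

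CDH1 (chr16:68737225-68835548, plus strand, GENCODE release 29 on GRCh38) had values of 455, 389 and 430 in the CAOV3 controls and 17.3, 6.29 and 16.2 in the TOV21G controls. The TOV21G level rests on 40 reads over 3 libraries against 1197 in CAOV3, a ratio of 31.7 with an exact 95% counting interval of 23.2 to 44.6, which covers counting error only. In the limma fit the difference was -5.01 (SE 0.32, adjusted p = 4.38e-09). By value, with no correction for length, CDH1 ranked 8673 among the listed genes in CAOV3 controls and 14805 in TOV21G controls.

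EPCAM (chr2:47345158-47387601), the epithelial cell adhesion molecule, differed least of the epithelial members. Its control values were 720, 692 and 793 in CAOV3 and 423, 360 and 386 in TOV21G (log2 difference -0.91, SE 0.08, limma adjusted p = 1.33e-07). Both lines thus carried it well above the detection limit, and no control library of one line reached the other.

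ESRP1, a splicing regulator that enforces epithelial exon choices, was near the limit of detection in both lines. It was read 11, 9 and 14 times in the CAOV3 controls and 3, 2 and 5 times in the TOV21G controls, a normalised ratio of 3.60 (exact 95% counting interval 1.74 to 8.18). The limma difference was -1.63 (SE 0.45, adjusted p = 0.00405).

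ELF3 and EHF are epithelial ETS-family transcription factors. ELF3 (chr1:202007945-202017188) stood at 1178, 1202 and 1106 in CAOV3 controls and at 179, 163 and 180 in TOV21G (log2 difference -2.73, SE 0.08, limma adjusted p = 6.99e-13). EHF (chr11:34621093-34661057) was read 23, 27 and 41 times in the CAOV3 controls and 0, 0 and 3 times in TOV21G. The normalised EHF ratio was 32.2, with an exact 95% counting interval of 10.7 to 159. So ELF3 was well read in both lines, while no TOV21G control held more than 3 reads of EHF.

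On the mesenchymal side, VIM (chr10:17228259-17237593), the intermediate filament of mesenchymal cells, was among the genes with the highest values in both lines. It ranked 7 of all listed genes by value in CAOV3 controls (127756, 127763 and 127810) and 6 in TOV21G controls (168025, 146366 and 158431). The difference was small, at 0.30 (SE 0.09, limma adjusted p = 0.00657). ZEB1 (chr10:31318495-31529814) differed less still, with 1601, 1704 and 1908 in CAOV3 and 1953, 1993 and 2022 in TOV21G (0.20, SE 0.05, adjusted p = 0.00368). The libraries labelled TOV21G thus held 1.23 times the VIM and 1.14 times the ZEB1 of those labelled CAOV3.

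CDH2 (chr18:27950966-28177446, minus strand), N-cadherin, was low throughout. Its values were 10.2, 3.23 and 19.8 in CAOV3 controls and 43.4, 34.6 and 33.2 in TOV21G controls (log2 difference 1.93, SE 0.44, limma adjusted p = 0.00111). ZEB2 (chr2:144364364-144524583, minus strand), the close relative of ZEB1, went the other way from ZEB1. It was read 60, 77 and 73 times in the CAOV3 controls and 0, 0 and 1 time in TOV21G, a normalised ratio of 223 (exact 95% counting interval 39.5 to 8835). One ZEB gene was thus shared by the lines at a like level, and the other was nearly confined to CAOV3 among these 12 libraries.

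Levels of different genes can be set side by side only per length, here as normalised count per kilobase of annotated exons. In CAOV3 controls the order was VIM (24773), EPCAM (292), ZEB1 (200.9), ELF3 (162), CDH1 (68.8), EHF (7.27), ZEB2 (2.97), ESRP1 (2.46) and CDH2 (2.24). Neighbours in this order did not overlap between libraries down to ZEB2, and ZEB2, ESRP1 and CDH2 overlapped. In TOV21G controls the order was VIM (30556), ZEB1 (230), EPCAM (155), ELF3 (24.2), CDH2 (7.49), CDH1 (2.15), ESRP1 (0.672), EHF (0.205) and ZEB2 (0.0119). There EHF overlapped both ESRP1 and ZEB2, and ESRP1 lay above ZEB2 without overlap. Between the lines EPCAM and ZEB1 exchanged places, and CDH2 stood under CDH1 and EHF in CAOV3 and above both in TOV21G, without overlap in either line. The CDH1 to CDH2 ratio per kilobase was 35.7, 96.7 and 17.4 in the CAOV3 controls and 0.321, 0.146 and 0.390 in the TOV21G controls, so E-cadherin RNA exceeded N-cadherin RNA in every CAOV3 control and was under it in every TOV21G control.

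**Figure D2:**
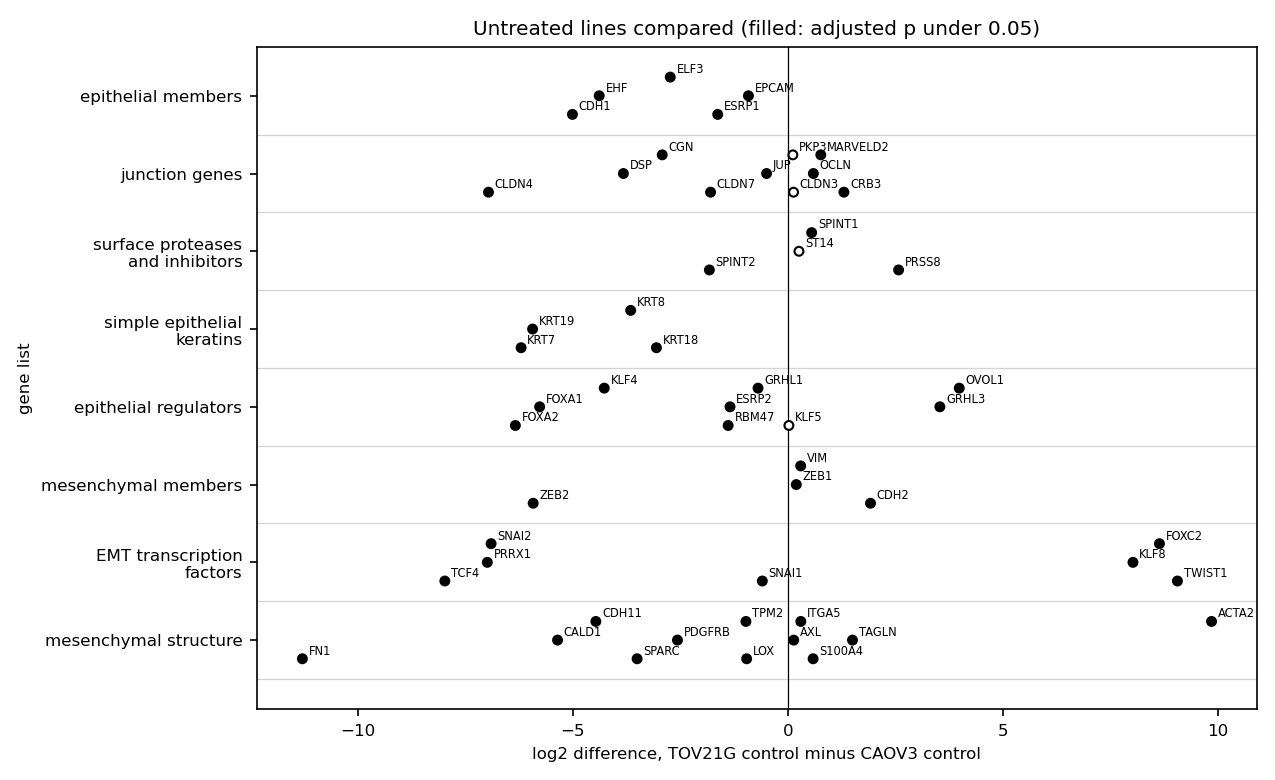
The log2 difference between untreated lines (x axis, TOV21G control minus CAOV3 control) for the matched members and for 6 related gene lists (rows), with 1 point per gene, filled where the adjusted p is under 0.05. The epithelial members and all 4 keratins lie to the left, and the transcription factors of the epithelial to mesenchymal transition lie on both sides. Fitted values of genes with no reads in one line, such as TWIST1 and TCF4, depend on the pseudocount of 1.

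The related genes, from lists of the same pathway, were split between the lines in the same untreated comparison. Their counts stand beside 82.2% of all tested genes called, 41.4% lower and 40.8% higher in TOV21G. All 4 simple epithelial keratins were lower in TOV21G: KRT7 stood at 21580 ± 428 in CAOV3 and 293 ± 31 in TOV21G, and KRT19 at 16839 ± 318 and 274 ± 8. Of 10 junction genes 5 were lower and 3 higher in TOV21G. CLDN4, a tight-junction claudin, stood at 3853 in CAOV3 and 30.1 in TOV21G, and DSP, the desmosomal plaque protein desmoplakin, at 4569 and 331. CRB3, a polarity protein, went the other way with 184 and 457, as did MARVELD2, the tight-junction protein tricellulin, with 463 and 785. Of 4 surface proteases and their inhibitors 2 were higher and 1 lower in TOV21G, among them the inhibitors SPINT1 (379 against 559) and SPINT2 (5359 against 1515).

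Of 9 matched epithelial regulators 6 were lower and 2 higher in TOV21G. The forkhead factors FOXA1 (2501 ± 57 in CAOV3 against 46.0 ± 12.7) and FOXA2 (1466 ± 47 against 17.3 ± 2.5) were lower. GRHL3, a grainyhead-like factor of the same family as GRHL2, was higher (110 ± 6 against 1283 ± 27). All 7 matched transcription factors of the transition were called, 3 higher and 4 lower in TOV21G, beside the 82.2% of all genes. TWIST1 had no read in the 3 CAOV3 controls and stood at 536 ± 46 in TOV21G, at least 504-fold higher against a floor of 3 counts over the group, and FOXC2 stood at 2.13 and 1260. TCF4 had no read in the 3 TOV21G controls and stood at 252 ± 22 in CAOV3, at least 251-fold higher on the same floor, and PRRX1 stood at 734 in CAOV3 and 4.92 in TOV21G. SNAI1 was well read in both lines, at 186 ± 18 in CAOV3 and 123 ± 8 in TOV21G. Of 12 matched genes of mesenchymal structure 5 were higher and 7 lower in TOV21G. ACTA2, smooth muscle actin, had 1 read over the CAOV3 controls and 3576 over the TOV21G controls, a normalised ratio of 3373 (exact 95% counting interval 605 to 133267), and TAGLN, its partner in smooth muscle, stood at 211 and 598. Fibronectin, FN1, stood at 12443 ± 353 in CAOV3 and 4.03 ± 1.07 in TOV21G, and CALD1, the actin-binding caldesmon, at 7086 and 172. OVOL2, TWIST2, MMP2 and THY1 were not analysed here.

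The second question was how ascites acted on these genes within each line. In CAOV3 none of the 9 members was called by limma at an adjusted p under 0.05, and none had an unadjusted p under 0.05, beside 1.73% of all tested genes called. The median log2 difference was -0.003 over the members and -0.002 over all tested genes. In 4 of the 9 the 3 ascites libraries lay all on one side of the 3 controls (CDH1 below, EPCAM, EHF and ZEB2 above), a pattern found in 24.2% of the 17616 tested genes.

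CDH1 had the largest log2 difference of the members in CAOV3. Its values were 455, 389 and 430 in the controls and 266, 268 and 281 with ascites, a mean of 425 ± 33 against 272 ± 8, or -36.0% of the control mean. The lowest control lay above the highest ascites library by more than either group's range. In limma the difference was -0.64 with an SE of 0.32 and an adjusted p of 0.438. This fit holds 1 spread per gene for both lines, and the SD of CDH1 within groups was 0.09 log2 units in CAOV3 and 0.65 in TOV21G, where few reads were counted. With the CAOV3 libraries fitted alone the same difference had an SE of 0.08 and a limma adjusted p of 7.18e-06, beside 8.19% of genes called in that fit. The count models on recovered reads called it as well, edgeR with an adjusted p of 0.00415 (2.9% of genes called) and DESeq2 with 2.16e-05 (3.66%). CDH1 in CAOV3 was thus called by 3 of these 4 fits, and the limma fit over both lines did not call it. The limma alternatives over both lines, with other pseudocounts, other scaling, no filter, a replicate block or 1 library left out, did not call it.

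**Figure D3:**
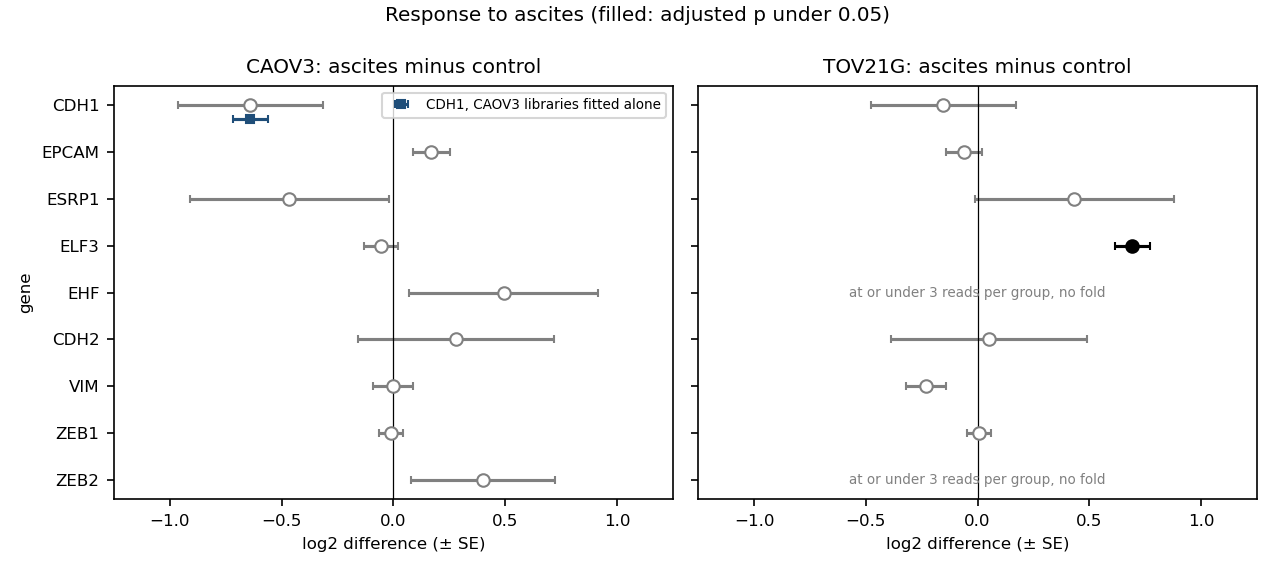
The log2 difference between ascites and control libraries (x axis, ± SE from the limma fit over 12 libraries) for each matched member (y axis) in CAOV3 and in TOV21G, filled where the adjusted p is under 0.05. ELF3 in TOV21G is the filled point, and the square gives CDH1 with the CAOV3 libraries fitted alone, with the same difference of -0.64 and a smaller SE of 0.08.

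The other epithelial members of CAOV3 gave small or poorly resolved differences. EPCAM was 818, 819 and 839 with ascites against 720, 692 and 793, which left the groups without overlap (log2 difference 0.17, SE 0.08, limma adjusted p = 0.405). ELF3 was 1119, 1141 and 1095 with ascites against 1178, 1202 and 1106, and the groups overlapped (-0.05, SE 0.08, adjusted p = 0.844). EHF was 43.8, 48.1 and 41.9 against 26.1, 29.04 and 40.6, with the highest control just under the lowest ascites library (0.49, SE 0.42, adjusted p = 0.690). ESRP1 gave 3, 13 and 12 reads with ascites against 11, 9 and 14, so a difference was not detectable at this depth (adjusted p = 0.728 in limma).

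The mesenchymal members of CAOV3 did not pass the test either. VIM was 126713, 124440 and 131489 with ascites, on both sides of the controls (-0.003, SE 0.09, limma adjusted p = 1). ZEB1 was 1690, 1729 and 1742, within the range of its controls (-0.01, SE 0.05, adjusted p = 0.983). ZEB2 was 110, 91.0 and 94.1 against 68.1, 82.8 and 72.2, all above the controls (0.40, SE 0.32, adjusted p = 0.662, and 0.102 with CAOV3 fitted alone). For CDH2 the values were 7.66, 13.3 and 13.3 against 10.2, 3.23 and 19.8, inside the spread of the controls (adjusted p = 0.867 in limma). None of CDH2, VIM, ZEB1 and ZEB2 was called in CAOV3 by edgeR, DESeq2 or the fit of CAOV3 alone, the fits that called CDH1, and DESeq2 gave no adjusted p for CDH2. The CDH1 to CDH2 ratio per kilobase was 27.8, 16.2 and 17.0 with ascites and overlapped the control ratios. The ZEB1 to ZEB2 ratio per kilobase was 68.1, 59.6 and 76.5 in the controls and 44.3, 55.0 and 53.6 with ascites.

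In TOV21G ELF3 rose with ascites. Its values were 179, 163 and 180 in the controls and 275, 318 and 255 with ascites, a mean of 174 ± 10 against 283 ± 32, with no overlap. The log2 difference was 0.69 (SE 0.08, limma adjusted p = 0.00115), an increase of 62.5% of the control mean. ELF3 was the 1 member of 9 called in this line, beside 0.409% of all tested genes, and the 1 member whose groups did not overlap, beside 11.1% of all tested genes. It remained called when any 1 of the 12 libraries was left out (highest adjusted p 0.00648). Even so, its highest ascites library (318) lay far under the lowest CAOV3 control (1106).

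The rise of ELF3 differed between the lines. The difference of the responses, TOV21G minus CAOV3, was 0.75 (SE 0.11, limma adjusted p = 0.0093), and ELF3 was the 1 member of 9 called for it, beside 0.545% of all tested genes. It held in all 12 fits that left out 1 library (highest adjusted p 0.0332), and was not called by limma with the replicate number as a block (adjusted p = 0.119). For CDH1 the difference of the responses was 0.49 (SE 0.46, adjusted p = 0.665 in limma), so the responses of CDH1 were not shown to differ between the lines. ELF3 overlaps the antisense gene ELF3-AS1, and since the sources used here do not give the strand setting of the counting, reads of the pair may be mixed.

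The 3 genes whose log2 values ran most like ELF3, over 12 libraries with each line's mean subtracted and 11885 genes compared, were TNF (Pearson r = 0.965), TGIF2 (r = 0.943) and NRIP1 (r = 0.931). TNF encodes an inflammatory cytokine, TGIF2 a homeobox repressor and NRIP1 a nuclear receptor corepressor. TNF and NRIP1 showed a log2 difference of 0 in CAOV3, where no read of them was counted, so their likeness rests on the 6 TOV21G libraries. TNF stood at 277 ± 13 in TOV21G controls and 491 ± 17 with ascites, without overlap. TGIF2 (385 ± 6 and 455 ± 17) and NRIP1 (4150 ± 70 and 4935 ± 63) did not overlap there either. The limma fit covers both lines, so for TNF and NRIP1 it includes the CAOV3 libraries at 0. The log2 differences there were 0.82 for TNF (limma adjusted p = 0.0869), 0.24 for TGIF2 (adjusted p = 0.0374) and 0.25 for NRIP1 (adjusted p = 0.553), of which TGIF2 alone was called. These correlations are descriptions of genes picked for their likeness.

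No other member was called in TOV21G. VIM was 133956, 148034 and 121617 with ascites against 168025, 146366 and 158431 in the controls, a mean of 134536 ± 13218 against 157607 ± 10853 with overlap between the groups. The log2 difference was -0.23 (SE 0.09, unadjusted p = 0.022 and adjusted p = 0.457 in limma). DESeq2 called it with an adjusted p of 0.0181, beside 1.17% of genes, while edgeR gave 0.097. Over the 6 TOV21G libraries VIM ran in the exact reverse order of KCNQ1OT1, a nuclear long non-coding RNA: KCNQ1OT1 stood at 95.4, 234, 235, 656, 731 and 1511 as VIM stood at 168025, 158431, 148034, 146366, 133956 and 121617. That reverse order was seen for 2.69% of tested genes, and VIM was the 1 member with it. The share of reads from mitochondrial genes in the same libraries was 2.18, 2.35, 2.71, 1.77, 1.61 and 1.49%. The KCNQ1OT1 values of 234.2 in control replicate 3 and 234.5 in ascites replicate 2 lay less than 1 read apart, so these 2 libraries cannot be ranked. The part of the order over the 6 libraries in the VIM difference was not tested.

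**Figure D4:**
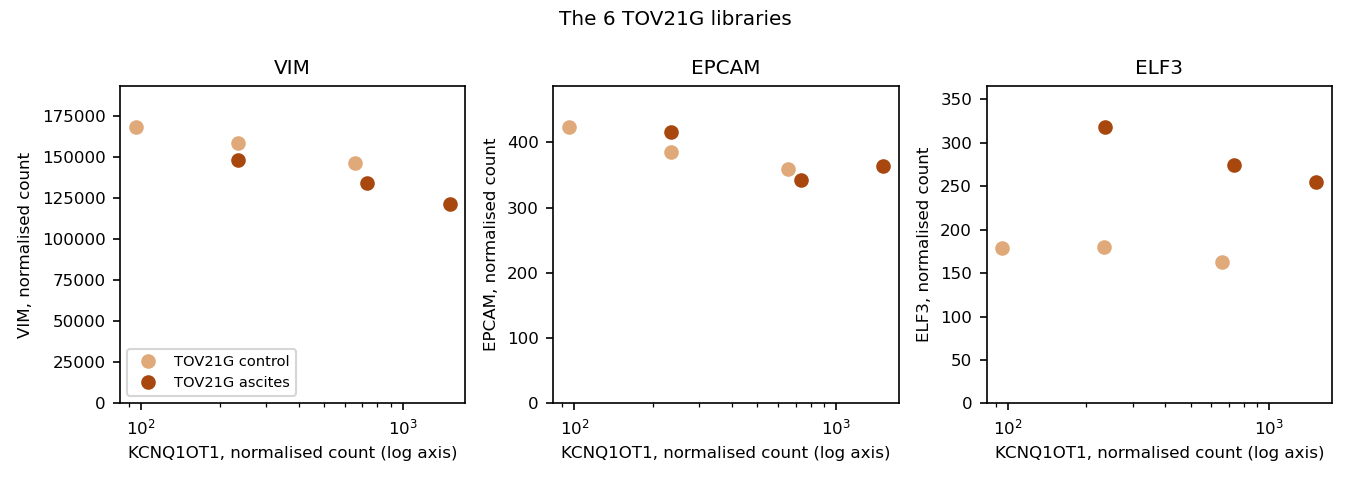
Normalised read counts of VIM, EPCAM and ELF3 (y axes, from 0) against that of KCNQ1OT1 (x axis, log scale) in the 6 TOV21G libraries, 3 controls and 3 with ascites. VIM descends from 168025 to 121617 as KCNQ1OT1 ascends from 95.4 to 1511, while ELF3 separates the treatments, with every ascites library above every control.

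The remaining members of TOV21G were level or too little read. ZEB1 was 1997, 1949 and 2044 with ascites against 1953, 1993 and 2022 (0.01, SE 0.05, limma adjusted p = 1). EPCAM was 342, 416 and 364 against 423, 360 and 386 (-0.06, SE 0.08, adjusted p = 0.843), and CDH2 was 40.6, 37.2 and 36.7 against 43.4, 34.6 and 33.2 (0.05, SE 0.44, adjusted p = 1). All 3 overlapped their controls. CDH1 was read 8, 15 and 16 times with ascites against 16, 6 and 18, and ESRP1 8, 6 and 3 times against 3, 2 and 5, so a change of the size seen for ELF3 was not detectable in them at this depth. EHF had 0 reads with ascites and 3 in the controls, and ZEB2 had 1 read in each group, so no fold is given for either. The CDH1 to CDH2 ratio per kilobase, 0.131, 0.286 and 0.313 with ascites, stayed under 1 in every library.

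Genes that work with the members moved in CAOV3. Of the 10 junction genes 3 were called lower with ascites by limma and none higher, beside 1.73% of all tested genes called. CLDN7, a claudin that binds EPCAM at the cell surface, fell from 490, 478 and 461 to 269, 324 and 313 (log2 difference -0.66, SE 0.10, limma adjusted p = 0.00379), and it remained called whichever library was left out. CRB3 fell from 184 ± 6 to 134 ± 6 (-0.45, SE 0.09, adjusted p = 0.018). JUP, plakoglobin, which links cadherins to the cytoskeleton, fell from 3395 ± 45 to 2937 ± 60 (-0.21, SE 0.04, adjusted p = 0.0227). The median of the 10 junction genes was -0.14, beside -0.002 over all tested genes. The CRB3 call was lost without control replicate 2 or 3 or ascites replicate 1 or 3 (highest adjusted p 0.0756), and that of JUP without any 1 of the 6 CAOV3 libraries (highest 0.108). Both were called by edgeR (adjusted p = 0.0138 for CRB3 and 0.00329 for JUP) and DESeq2 (0.0161 and 0.00108). With the replicate number as a block limma called neither (0.0998 and 0.147). With CAOV3 fitted alone 5 of the 10 were called, beside 8.19% of genes in that fit. CGN, CLDN7, CRB3 and JUP were lower there, and CLDN4 was higher (limma adjusted p = 0.0298, and 0.824 over 12 libraries). CLDN4 stood at 4249 with ascites against 3853, with all ascites libraries above the controls.

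**Figure D5:**
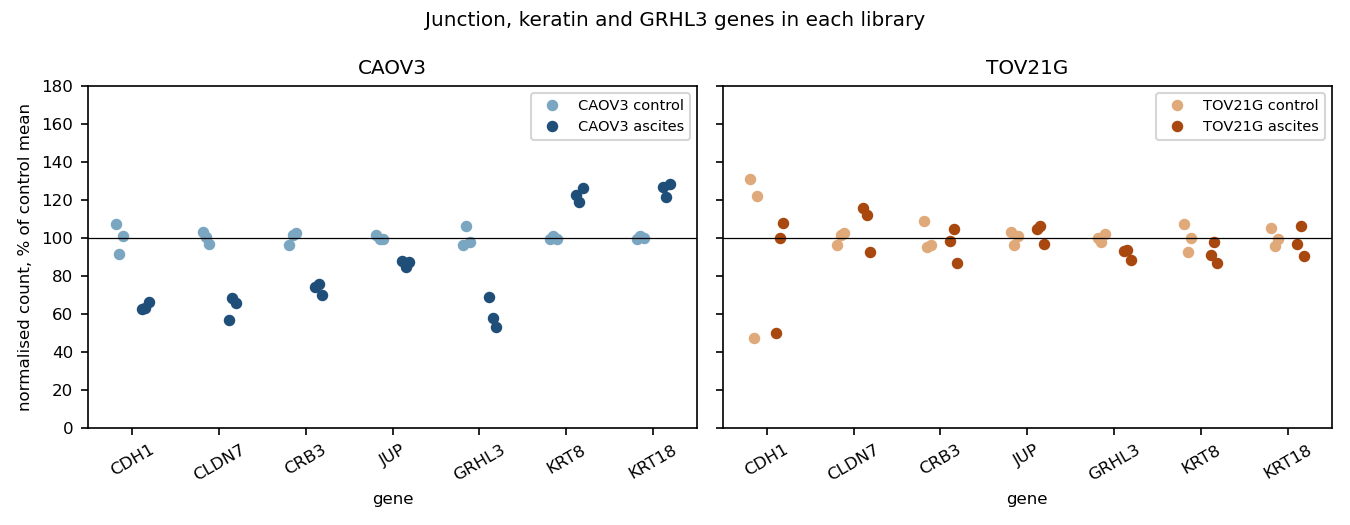
Normalised read count as a percentage of the control mean of the same line (y axis, from 0) for CDH1, CLDN7, CRB3, JUP, GRHL3, KRT8 and KRT18 (x axis) in each library of CAOV3 and of TOV21G. In CAOV3 the ascites libraries of the first 5 genes lie below all controls and those of KRT8 and KRT18 above all controls, and in TOV21G the groups overlap for each gene but GRHL3.

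Of the 4 simple epithelial keratins 2 were called higher with ascites in CAOV3 by limma and none lower, beside 1.73% of all tested genes called. KRT8 rose from 66099, 67114 and 66189 to 81471, 78890 and 83756 (0.29, SE 0.06, limma adjusted p = 0.0231), and its filament partner KRT18 rose from 47679 ± 404 to 59866 ± 1718 (0.33, SE 0.06, adjusted p = 0.0102). In each the ascites libraries lay above all controls. KRT7 was not called by limma (0.18, adjusted p = 0.274) but was by edgeR (0.0464) and DESeq2 (0.00341). KRT8 and KRT18 have many processed pseudogene copies, so their counts are uncertain where reads could be split. The KRT8 call was lost without any 1 of the 6 CAOV3 libraries (highest adjusted p 0.102), and the KRT18 call without ascites replicate 1 or 3 (highest 0.052). Both were called by edgeR (adjusted p = 0.000812 for KRT8 and 0.000274 for KRT18) and DESeq2 (1.98e-06 and 4.30e-08). With the replicate number as a block limma called neither (0.185 and 0.117).

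Among the 9 matched epithelial regulators of CAOV3, GRHL3 fell with ascites from 106, 116 and 107 to 75.5, 63.4 and 58.3 (-0.73, SE 0.09, limma adjusted p = 0.00062) and remained called whichever library was left out. In TOV21G its 3 ascites libraries also lay below the controls, at 1176 ± 38 against 1283 ± 27 (-0.13, adjusted p = 0.666 in limma), and the difference of the responses missed the threshold (0.61, adjusted p = 0.0505). FOXA1 was not called by limma (-0.22, adjusted p = 0.635) but was by edgeR (0.0487) and DESeq2 (0.0149). In limma none of the 7 matched transcription factors of the transition, none of the 12 structural mesenchymal genes and none of the 4 surface proteases and inhibitors was called in CAOV3, and 0, 3 and 1 of them had an unadjusted p under 0.05. Their medians were 0, 0.05 and -0.01. Other fits called some of them. TAGLN was 260, 285 and 257 with ascites against 185, 228 and 219, all above the controls (0.35, SE 0.08, limma adjusted p = 0.0647), and was called by edgeR (0.0397), DESeq2 (0.0442) and with CAOV3 fitted alone (0.0256). SPINT1 (-0.38, limma adjusted p = 0.12) was called by DESeq2 (0.0332) and with CAOV3 fitted alone (0.00774), and not by edgeR (0.0525). With CAOV3 fitted alone 5 of the structural genes were called, 3 higher (AXL, CDH11 and TAGLN) and 2 lower (CALD1 and FN1), and 1 transcription factor, SNAI2, was called higher.

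In TOV21G 2 genes of the related lists were called by limma, both lower with ascites, beside 0.409% of all tested genes called. They were 1 of the 7 matched transcription factors of the transition and 1 of the 9 matched epithelial regulators. None of the 12 structural mesenchymal genes and none of the 4 surface proteases and inhibitors was called. SNAI1, a repressor of CDH1, fell from 128, 113 and 127 to 77.9, 85.8 and 62.6 (-0.71, SE 0.14, limma adjusted p = 0.0462), a call that remained in 1 of 12 fits with a library left out, that without TOV21G ascites replicate 2 (highest adjusted p 0.176, without control replicate 3). For SNAI1 edgeR (adjusted p = 0.0256) and DESeq2 (0.00341) made the call as well, and limma with TOV21G fitted alone did not (0.164). FOXA2 fell from 17.3 ± 2.5 to 8.37 ± 2.70 (-0.998, SE 0.18, adjusted p = 0.0351), which remained in 3 of 12 such fits, those without TOV21G control replicate 2, ascites replicate 2 or ascites replicate 3, and edgeR and DESeq2 did not call it (adjusted p = 0.143 and 0.117). FOXA2 rests on 52 reads over the controls and 29 with ascites. With the replicate number as a block limma called neither SNAI1 (adjusted p = 0.264) nor FOXA2 (0.276). None of the 10 junction genes and none of the 4 keratins was called in TOV21G by limma (2 and 0 with an unadjusted p under 0.05), edgeR or DESeq2. CLDN7 was 146 ± 17 with ascites against 137 ± 5 in the controls.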

How the data were processed

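Per the submitters' processing notes, Trim Galore, cutadapt, STAR, HTSeq and DESeq were used, with versions, genome build, annotation and strand setting not given in the sources used here. The authors deposited 1 normalised count per gene and library (a signal that is never negative). Dividing by the smallest step between values gave whole reads for 100% of values in every library, within 0.01 reads, and the steps match size factors computed jointly over the 12 libraries. Symbols came from a gene name table (19087) and GENCODE release 29 (136), and 28 genes had none.

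Genes with a value of at least 10 in at least 3 libraries were tested with limma 3.58.1 in R 4.3.3 (lmFit, eBayes with trend) on log2(value + 1), with a mean per group over 12 libraries. P-values are two-sided. The log2 scale understates changes of low genes. edgeR 4.0.16 and DESeq2 1.42.0 on recovered reads, other pseudocounts, scaling and filters, each line alone, a replicate block and leaving out each library were alternatives. The scripts were tested on simulated data.

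The members and lists were chosen with earlier results of these data known. Named were all members, every listed gene called for ascites or for the difference of responses, up to 2 genes per list and direction with the largest difference between controls (mean of at least 100 in the higher group), and the 3 genes most like a called member. MUC1, COL1A2 and KCNQ1OT1 were named after their values were seen.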

Additional observations from a re-analysis of the deposited data

Results flagged for a closer look

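The interaction term of the limma fit was called for 4 of the genes described, beside 0.545% of all tested genes, for a response to ascites that differed between the lines. For these 4 edgeR and DESeq2 made the call as well. With the replicate number as a block limma called none of them (adjusted p = 0.119 for ELF3, 0.247 for CLDN7, 0.364 for KRT8 and 0.0827 for MUC1). For ELF3 the difference of the responses (TOV21G minus CAOV3) was 0.75 on the log2 scale, with a rise in TOV21G and -0.05 in CAOV3. For CLDN7 it was also 0.75 (SE 0.14, limma adjusted p = 0.036), with a fall in CAOV3 and 0.09 in TOV21G, and it was called in 1 of 12 fits that left out a library, that without TOV21G ascites replicate 3 (highest adjusted p 0.101). For KRT8 it was -0.41 (SE 0.08, limma adjusted p = 0.0483), with a rise in CAOV3 and -0.12 in TOV21G, and it was called in 2 of 12 such fits, those without TOV21G control replicate 2 or TOV21G ascites replicate 2 (highest adjusted p 0.147). For MUC1 it was -1.19 (SE 0.15, limma adjusted p = 0.00445), with a rise in CAOV3 and 0.08 in TOV21G, and it was called in all 12 such fits (highest adjusted p 0.0186).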

How the results depend on the processing

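In CAOV3 the count of members called with ascites was 0 in the limma fit and 1 (CDH1) with edgeR, with DESeq2 and with CAOV3 fitted alone. In TOV21G it was 1 (ELF3) and became 2 with DESeq2, where VIM was added. With the replicate number as a block the count was 0 in TOV21G and 0 for the difference of responses, which was 1 without the block. ELF3 then had limma adjusted p-values of 0.0530 and 0.119. The labels do not say whether the replicate numbers pair the libraries. Same-number correlations of deviations were -0.0196, 0.0190 and 0.0155 in CAOV3 and -0.113, -0.332 and 0.0193 in TOV21G. With 3 libraries per group these cannot decide whether there was pairing. Between untreated lines the count was 9, and 8 with the block, where VIM had an adjusted p of 0.0518, and with the control libraries fitted alone it was 8 of 8 tested, ESRP1 being under the filter. Leaving out 1 library at a time gave 0 in CAOV3, 1 in TOV21G, 1 for the difference and 9 between lines in every fit. Other pseudocounts, TMM scaling and no filter changed none of these counts. No called member changed sign under any alternative. Over all genes the calls moved more than 1.5 times: in CAOV3 from 305 to 511 with edgeR, 507 with DESeq2, 1295 alone and 116 with the block, and in TOV21G from 72 to 114, 150, 22 and 13. For the difference they moved from 96 to 148, 212 and, with the block, 9, and to 151 with TMM scaling. With 1 library left out they ran from 172 (CAOV3 ascites replicate 2 omitted) to 344 in CAOV3. In TOV21G they ran from 24, with its control replicate 3 omitted, to 136, with its ascites replicate 2 omitted, and for the difference from 40 to 146 with these same omissions. The ZEB1 to ZEB2 ratio in CAOV3 was 41.3 in controls and 31.0 with ascites on principal transcript lengths, an alternative chosen after seeing the data, against 68.1 and 51.0 on all exons. Read depth limits CDH1, ESRP1, EHF and ZEB2 in TOV21G and CDH2 and ESRP1 in CAOV3.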
